A study of Drosophila melanogaster with 8 samples.

Results

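The Eig71E genes are a cluster of small secreted-protein genes in the 71E region of chromosome arm 3L of Drosophila melanogaster. The 10 genes Eig71Ea to Eig71Ej were taken by symbol from tables of 15904 rows, and each had 1 row of its own. In fly larvae the steroid hormone ecdysone switches on a first tier of regulatory genes, among them br, Eip74EF and Eip75B, whose products then act on late genes such as those at 71E. Most of the Eig71E genes are late genes of the salivary gland, which make short cysteine-rich secreted proteins once the gland has expelled its glue. Eig71Ee differs from the others, because it is active earlier, alongside the glue genes, and its mucin-like product is also found in larval haemolymph clots.

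RNA was taken from entire larvae at the wandering stage, just before puparium formation. There were 4 groups of 2 libraries, each from 5 pooled larvae. The labelled recombinant carries Hsp90GFP and hsromega66 together (w1118; Sp/CyO';hsp90GFPhsromega66). The hsromega66 group is w1118; Sp/CyO';hsromega66, a near-null allele of the non-coding RNA gene hsromega. The Hsp90GFP group is w1118; Sp/CyO';hsp90GFP and over-expresses the chaperone Hsp83. WT is Oregon R+, so the stock background and the named genotype cannot be told apart in any comparison with WT. Neither the driver of Hsp90GFP nor the sex of the larvae is stated in the labels. The labels do not say whether the libraries of a group came from separate cultures, so the spread behind the authors' test may be partly technical.

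The tables hold 1 FPKM value per gene and group (fragments scaled to transcript length and library size), pooled by the authors over both libraries, so levels stand without a spread between libraries and the read depth is unknown. hsromega was at 77.9 FPKM in the labelled recombinant, 0.767 in hsromega66, 273 in Hsp90GFP and 236 in WT. The label of the recombinant libraries thus goes against their hsromega level, and they are called the labelled recombinant throughout. Hsp83 was at 968 FPKM in the labelled recombinant, 427 in hsromega66, 1616 in Hsp90GFP and 371 in WT. A gene is called higher or lower where its q was under 0.05 in the authors' deposited table. The smallest p that the authors' deposited table gives is 5e-05, which corresponds there to a q of 0.00144. The whole larva was sequenced, so fewer gland cells and less RNA per cell cannot be told apart.

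The members span 11890 bp of 3L (15649126 to 15661015, dm6), with 4 on the plus strand and 6 on the minus strand. An 11th gene of the family, Eig71Ek, lies beside Eig71Ej and was not among the members. The genes are laid out as divergent pairs, in which a minus-strand gene and a plus-strand gene start a short way apart and point away from each other. The start sites lie 275 bp apart in Eig71Ea/Eig71Eb, 283 bp in Eig71Ec/Eig71Ed, 238 bp in Eig71Ef/Eig71Eg, 266 bp in Eig71Eh/Eig71Ei and 233 bp in Eig71Ej/Eig71Ek. Eig71Ee has no such partner. It is also the long member, with a transcript of 1486 nt that codes for 445 amino acids, while the transcripts of the others run from 403 to 639 nt and code for 95 to 173. Because these transcripts are short, a low FPKM of any of them rests on few fragments.

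**Figure D1:**
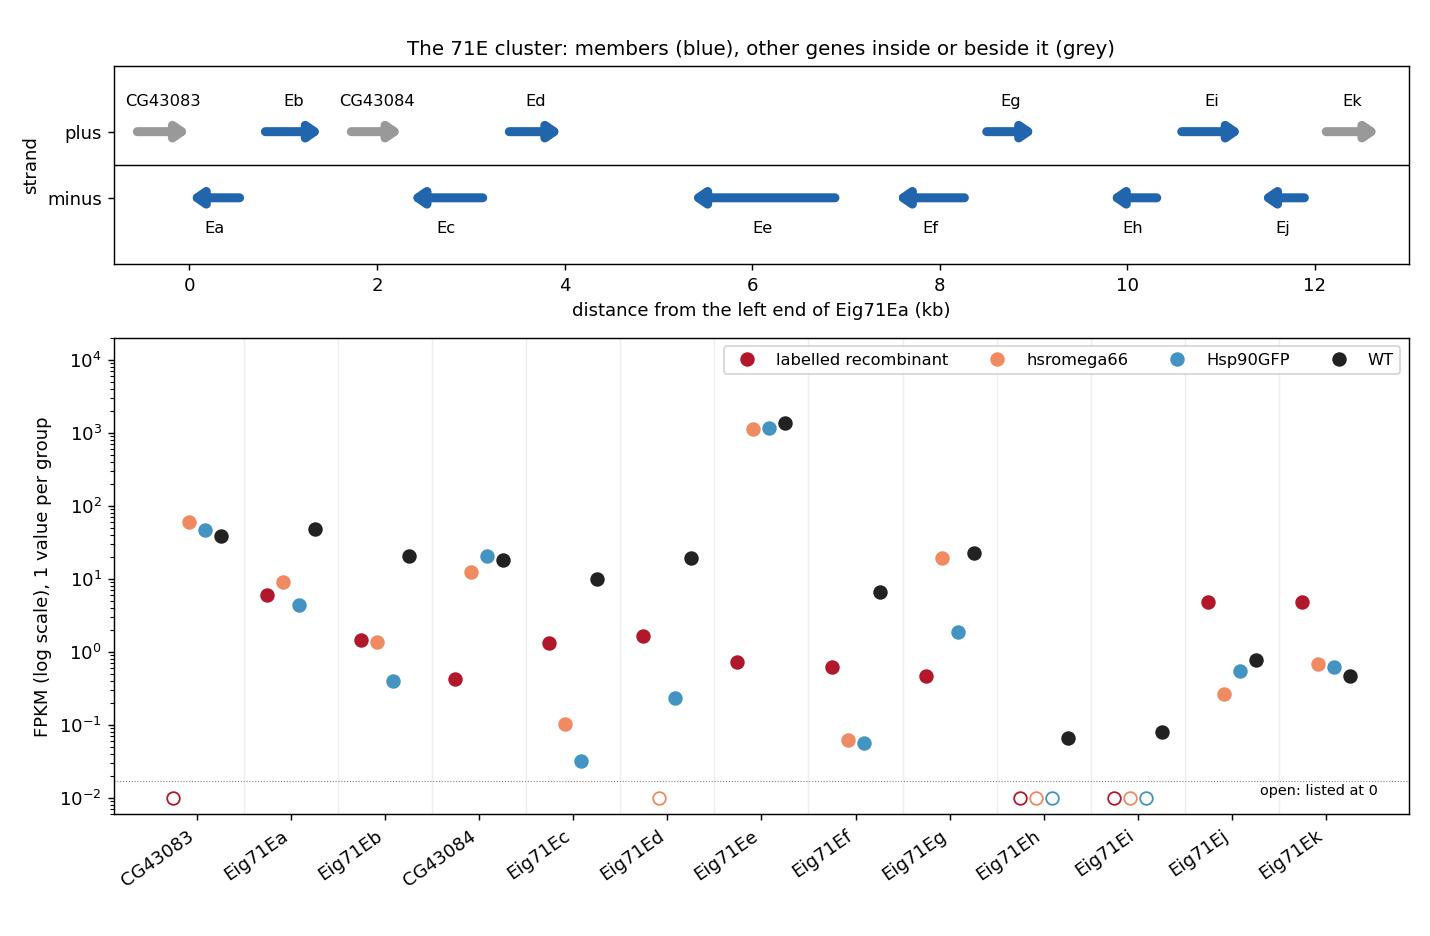
Upper panel: the 71E genes by strand, as distance in kb from the left end of Eig71Ea. Lower panel: FPKM of each gene in the labelled recombinant, hsromega66, Hsp90GFP and WT on a log axis, 1 pooled value per group, with open symbols for values listed at 0. WT is the highest group for 9 of the 10 members, and Eig71Ee stands at 0.727 FPKM in the labelled recombinant against 1139 to 1370.45 in the other groups.

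Different patterns were seen along the cluster. Eig71Ee was abundant in every group but the labelled recombinant. Eig71Ea to Eig71Ed and Eig71Ef had values more than 5-fold lower in each mutant stock than in WT, with Eig71Ed listed at 0 in hsromega66, though none of them was called in all 3 stocks and Eig71Ec and Eig71Ef were called in none. Eig71Ej was at its highest in the labelled recombinant, and Eig71Eh and Eig71Ei were close to 0 everywhere. WT had the highest value for 9 members and the labelled recombinant for 1. Summed over the 10 members, the level was 17.2 FPKM in the labelled recombinant, 1169 in hsromega66, 1178 in Hsp90GFP and 1499 in WT. Eig71Ee made up 4.22% of that sum in the labelled recombinant, 97.4% in hsromega66, 99.4% in Hsp90GFP and 91.4% in WT. The other 9 members together reached 16.5 FPKM in the labelled recombinant, 30.4 in hsromega66, 7.56 in Hsp90GFP and 128 in WT. Without Eig71Ee the mutant stocks thus lay at 12.9% (labelled recombinant), 23.7% (hsromega66) and 5.88% (Hsp90GFP) of the WT sum. These sums rest largely on few members. Eig71Eg was at 19.6 of the 30.4 FPKM in hsromega66, and Eig71Ea at 4.37 of the 7.56 in Hsp90GFP. In the labelled recombinant Eig71Ea was at 6.04 FPKM and Eig71Ej at 4.91.

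Eig71Ee (FBgn0004592, 3L 15654472 to 15656010, minus strand, 2 exons) was at 0.727 FPKM in the labelled recombinant, 1139 in hsromega66, 1170.3 in Hsp90GFP and 1370.45 in WT. It ranked 10344th of 15904 rows in the labelled recombinant and 164th in hsromega66 and 141st in Hsp90GFP, and it stood higher still in WT. The labelled recombinant was 1885-fold below WT, a log2 ratio of -10.88 with a 95% interval of -13.16 to -8.60. The interval, here and below, is the normal one that the authors' fold and test statistic imply. It need not match the authors' own p-value. For Eig71Ed in Hsp90GFP against WT it runs from -10.17 to -2.56, while the authors' Cuffdiff test gave p = 0.221. An interval that leaves out 0 is therefore not read as a change. Eig71Ee was called lower in the labelled recombinant against WT, against hsromega66 (1566-fold) and against Hsp90GFP (1610-fold), each with q = 0.00144 in the authors' deposited table. The 3 other groups lay close together. The log2 ratio was -0.27 in hsromega66 against WT (95% interval -2.13 to 1.60), -0.23 in Hsp90GFP against WT (-2.29 to 1.84) and 0.04 in Hsp90GFP against hsromega66 (-1.95 to 2.03). These intervals reach past 3-fold in either direction, so the groups cannot be said to be equal.

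The leftmost pair is Eig71Ea and Eig71Eb. Eig71Ea (FBgn0004588, 3L 15649126 to 15649661, minus strand, 3 exons) was at 6.04 FPKM in the labelled recombinant, 9.05 in hsromega66, 4.37 in Hsp90GFP and 48.2 in WT. All mutant stocks were below WT by at least 5-fold. It was called lower than WT in the labelled recombinant (7.98-fold, q = 0.0356 in the authors' deposited table) and in Hsp90GFP (11.02-fold, q = 0.00653). In hsromega66 against WT the log2 ratio of -2.41 (95% interval -4.60 to -0.22) was not called, with q = 0.0664 in the authors' deposited table. Eig71Eb (FBgn0004589, 3L 15649936 to 15650541, plus strand, 3 exons) was at 1.45 FPKM in the labelled recombinant, 1.37 in hsromega66, 0.397 in Hsp90GFP and 20.5 in WT. It was again WT that stood apart, and Eig71Eb was called lower in hsromega66 (15.0-fold, q = 0.0497 in the authors' deposited table). A value nearly the same in the labelled recombinant (14.1-fold below WT) missed the threshold with q = 0.0574 in the authors' deposited table. The lower value in Hsp90GFP, 51.7-fold below WT, had q = 0.676 in the authors' deposited table. The calls therefore do not follow the size of the fold for these low genes, and a call in 1 stock beside none in another is no difference between stocks.

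The next pair is Eig71Ec and Eig71Ed. Eig71Ec (FBgn0004590, 3L 15651479 to 15652254, minus strand, 3 exons) was at 1.35 FPKM in the labelled recombinant, 0.104 in hsromega66, 0.0320 in Hsp90GFP and 10.02 in WT. No comparison of it was called. In the authors' deposited table, q against WT was 0.130 for the labelled recombinant, 0.671 for hsromega66 and 0.599 for Hsp90GFP. Eig71Ed (FBgn0004591, 3L 15652537 to 15653096, plus strand, 3 exons) was at 1.67 FPKM in the labelled recombinant, was listed at 0 in hsromega66, and was at 0.235 in Hsp90GFP and 19.5 in WT. It was called lower in hsromega66 than in WT (q = 0.00144 in the authors' deposited table). It was also called higher in the labelled recombinant than in hsromega66 (q = 0.0204 in the authors' deposited table), which was the only rise called among the members in the 6 comparisons. Lower values than in WT were also found in the labelled recombinant (11.6-fold, q = 0.0838 in the authors' deposited table) and in Hsp90GFP (82.7-fold, q = 0.665), without a call.

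The pair of Eig71Ef and Eig71Eg lies to the right of Eig71Ee, and its partners differed in hsromega66. Eig71Ef (FBgn0004593, 3L 15656655 to 15657390, minus strand, 2 exons) was at 0.625 FPKM in the labelled recombinant, 0.0628 in hsromega66, 0.0578 in Hsp90GFP and 6.57 in WT, with no call. Eig71Eg (FBgn0004594, 3L 15657628 to 15658149, plus strand, 3 exons) was at 0.466 FPKM in the labelled recombinant, 19.6 in hsromega66, 1.91 in Hsp90GFP and 22.8 in WT. In hsromega66 the plus-strand partner thus lay beside WT, with a log2 ratio of -0.22 (95% interval -2.34 to 1.90), while the minus-strand partner was 105-fold below it with an interval of -18.56 to 5.14 on the log2 scale. Whether the partners differ in their change was not tested. Eig71Eg was called lower in Hsp90GFP than in WT (11.9-fold, q = 0.0414 in the authors' deposited table), and a near equal fold against hsromega66 (10.2-fold) had q = 0.0501 there. In the labelled recombinant it was 49.0-fold below WT and 42.03-fold below hsromega66, with q = 0.418 for each in the authors' deposited table.

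Eig71Eh (FBgn0014848, 3L 15658936 to 15659441) and Eig71Ei (FBgn0014849, 3L 15659707 to 15660351) were listed at 0 in all 3 mutant stocks and at 0.0667 and 0.0799 FPKM in WT. The authors' test was not run on either in any comparison. Eig71Ej (FBgn0014850, 3L 15660549 to 15661015, minus strand, 2 exons) was at 4.91 FPKM in the labelled recombinant, 0.268 in hsromega66, 0.554 in Hsp90GFP and 0.769 in WT. Eig71Ek, its divergent partner (FBgn0014851, 3L 15661248 to 15661809), was at 4.87 FPKM in the labelled recombinant, 0.690 in hsromega66, 0.635 in Hsp90GFP and 0.464 in WT. Both partners of this pair had their highest value in the labelled recombinant. For Eig71Ej the log2 ratio to WT there was 2.68 (95% interval -0.72 to 6.07), without a call (q = 0.516 in the authors' deposited table). For Eig71Ek against WT the q in the authors' deposited table was 0.492.

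**Figure D2:**
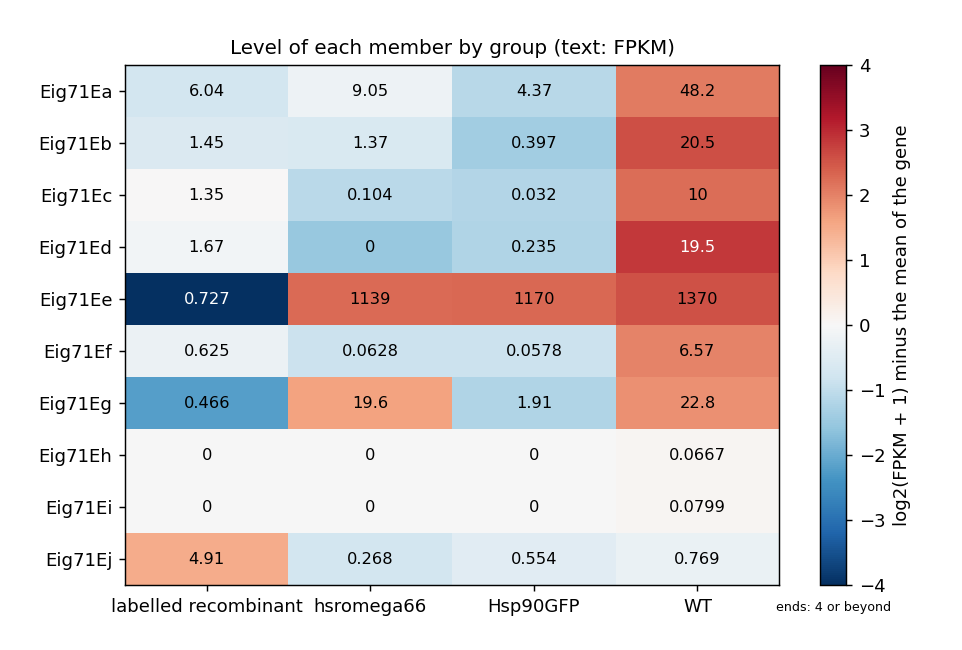
FPKM of the 10 members (rows, in order along the chromosome) in the 4 groups (columns), with colour for log2(FPKM + 1) minus the gene's own mean over the groups. Eig71Ee is lowest in the labelled recombinant (0.727), Eig71Ea to Eig71Ed and Eig71Ef are highest in WT, Eig71Eg is high in hsromega66 (19.6) and WT (22.8), and Eig71Ej peaks at 4.91 in the labelled recombinant.

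Counted by comparison, 2 members at most were called. Against WT, 2 of the 8 members tested fell in the labelled recombinant (Eig71Ea and Eig71Ee), where 8.66% of 12656 tested genes were called in either direction and 4.05% lower. In hsromega66, 2 of 8 fell (Eig71Eb and Eig71Ed), where 1.24% of 12523 genes were called and 0.375% lower. In Hsp90GFP, 2 of 8 fell (Eig71Ea and Eig71Eg), where 1.09% of 12621 genes were called and 0.467% lower. No member was called higher than WT, where 4.61%, 0.862% and 0.618% of the tested genes were (labelled recombinant, hsromega66 and Hsp90GFP). The 3 comparisons share the WT libraries, so a WT value that is high for any reason lowers all of them. Against hsromega66, where 7.30% of 12488 genes were called, the labelled recombinant had 1 of 8 members lower (Eig71Ee, with 3.63% of all genes lower) and 1 higher (Eig71Ed, with 3.68% higher). Against Hsp90GFP, where 6.66% of 12605 genes were called, it had 1 of 8 lower (Eig71Ee, with 3.14% of all genes lower) and none higher (3.51%). Eig71Ee was also the only member there at an unadjusted p under 0.05 of the authors' Cuffdiff test. Members at such a p against WT numbered 5 in the labelled recombinant, 3 in hsromega66 and 2 in Hsp90GFP, the called ones among them. For the labelled recombinant against hsromega66 they were the 2 called. Hsp90GFP against hsromega66 had none of 4 called by the authors' Cuffdiff test, where 0.997% of 12534 genes were called (0.343% higher and 0.654% lower), and 1 at an unadjusted p under 0.05 (Eig71Eg). By the standard errors that the authors' statistic implies, none was called there either.

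In all, 9 of 44 member tests were called, in 5 members. Of all tested genes, between 0.997% and 8.66% were called in each of the 6 comparisons. The 3 calls of Eig71Ee held under a q of 0.01 and under other adjustments of the authors' p-values, while those of Eig71Ea, Eig71Eb and Eig71Eg were each lost under at least 1 of these. The call of Eig71Ed in hsromega66 against WT held under these. Its call as higher in the labelled recombinant than in hsromega66 was lost at a q of 0.01. On the log2(FPKM + 1) scale, which understates folds of low genes, the median over the 10 members against WT was -2.52 in the labelled recombinant, -1.39 in hsromega66 and -2.94 in Hsp90GFP. Over all tested genes it was -0.07, -0.03 and -0.04. Among the 8 members tested, leaving out Eig71Eh and Eig71Ei, it was -2.87 in the labelled recombinant, -2.56 in hsromega66 and -3.11 in Hsp90GFP. Between the mutant stocks the members' median was 0.02 for the labelled recombinant against hsromega66, 0.50 for the labelled recombinant against Hsp90GFP and near 0 for Hsp90GFP against hsromega66, and over the members tested it was 0.33, 0.72 and -0.83. The members are neighbours on 1 chromosome arm and are not independent of each other.

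**Figure D3:**
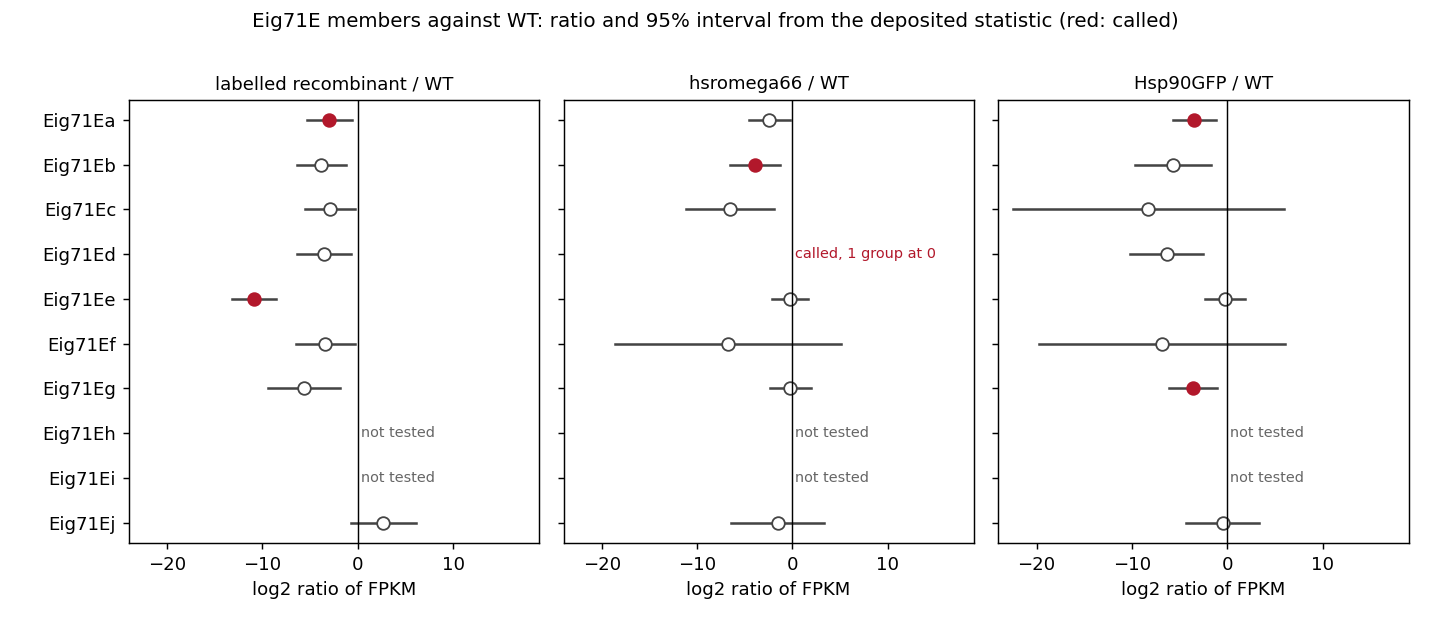
Log2 ratio of FPKM to WT for each member in the labelled recombinant, hsromega66 and Hsp90GFP, with the 95% interval implied by the authors' test statistic. Filled red symbols are called. An interval can leave out 0 where the p of the authors' Cuffdiff test is large, as for Eig71Ed in Hsp90GFP (p = 0.221). Eig71Ee lies at -10.88 in the labelled recombinant and near 0 in the other stocks, and the widest intervals, those of Eig71Ec in Hsp90GFP and of Eig71Ef in hsromega66 and Hsp90GFP, belong to values under 0.2 FPKM.

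Profiles of the members were compared as log2(FPKM + 1) in the 4 groups minus the gene's mean, by Euclidean distance. Leaving aside Eig71Eh and Eig71Ei, both near 0, the closest members were Eig71Ec and Eig71Ef (0.53), which are not partners, then the partners Eig71Ea and Eig71Eb (0.71) and Eig71Ec and Eig71Ed (0.75). The widest distance was between Eig71Ee and Eig71Ej (9.90).

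Genes between and beside the members were looked at for the same patterns. CG43083 (3L 15648571 to 15649125), which ends at the base next to the end of Eig71Ea on the other strand, was listed at 0 in the labelled recombinant and was at 59.7 FPKM in hsromega66, 47.8 in Hsp90GFP and 39.1 in WT. It was called lower in the labelled recombinant against all 3 other groups (q = 0.00144 in the authors' deposited table for each). CG43084 (3L 15650852 to 15651392), between Eig71Eb and Eig71Ec, was at 0.423 FPKM in the labelled recombinant, 12.4 in hsromega66, 21.0 in Hsp90GFP and 18.6 in WT, without a call (q = 0.522 against WT in the authors' deposited table). These genes were low in the same group as Eig71Ee, and the members next to them, Eig71Ea and Eig71Eb, were not highest in the same groups as they were. The library kit keeps strand, but whether the counting used strand is not stated, so reads of Eig71Ea and CG43083 near their shared end may not be separated. On the left, comm3, a gene of the commissureless family, was at 12.7 FPKM in the labelled recombinant, 16.2 in hsromega66, 10.2 in Hsp90GFP and 13.8 in WT, with no call. On the right, CG43082 and CG7304 were under 0.2 FPKM in all groups. lncRNA:CR45977 had no row of its own.

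The glue genes are the other secretion genes of this gland, and they were read beside the members. Of 12 glue and early gland secretion genes, 11 were tested. In the labelled recombinant against WT, 2 fell and none rose, where 4.05% of all tested genes fell. Sgs5, a glue protein gene, was at 4.75 FPKM in the labelled recombinant, 5986 in hsromega66, 4232 in Hsp90GFP and 7687 in WT, and Sgs7, another, was at 21.2, 39513, 20821 and 33244 FPKM in the same groups. Both were called lower in the labelled recombinant against each other group (q = 0.00144 in the authors' deposited table), as Eig71Ee was. In hsromega66 against WT, 1 rose (Sgs5bis, 2783 FPKM against 145) and 1 fell (Sgs1, 8.62 FPKM against 80.6). There 0.862% of all tested genes rose and 0.375% fell. In Hsp90GFP against WT none of the 11 was called, where 1.09% of all tested genes were. At that share, none called is near what a list of 11 genes would give. The median log2(FPKM + 1) ratio to WT of the list was -6.48 in the labelled recombinant, -0.26 in hsromega66 and -0.71 in Hsp90GFP. A further 5 had values 303-fold to 4863-fold below WT in the labelled recombinant without a call, named after their values were seen: Sgs1 (0.0166 FPKM against 80.6), Sgs3 (0.419 against 1121), Sgs4 (0.718 against 422), Sgs8 (1.01 against 3623) and Sgs5bis (0.477 against 145). In the labelled recombinant 4 genes of the list had values above WT without a call, and these were named after their values were seen: ng1 (157 FPKM against 9.53), ng2 (143 against 9.01), ng3 (2807 against 310) and Pig1 (305 against 83.6). ng1, ng2 and ng3 are intermoult genes known to be active in the gland before the glue genes.

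Genes of the ecdysone response were read next, since they lie upstream of the late genes. Of 14 tested genes for the receptor and for early and early-late factors, 3 fell and none rose in the labelled recombinant against WT, and none was called in hsromega66 or in Hsp90GFP. Of all tested genes, 4.05% fell in the labelled recombinant against WT. Eip74EF, which encodes an ETS factor that binds at 71E late genes, was at 4.29 FPKM in the labelled recombinant, 27.7 in hsromega66, 28.0 in Hsp90GFP and 30.3 in WT. Its fall was called against WT (7.06-fold, q = 0.00144 in the authors' deposited table). Eip78C, a nuclear receptor gene, was at 0.350 FPKM in the labelled recombinant, 38.4 in hsromega66, 5.70 in Hsp90GFP and 23.7 in WT. Blimp-1, a repressor gene of prepupal timing, was at 0.362 FPKM in the labelled recombinant, 4.17 in hsromega66, 2.95 in Hsp90GFP and 2.98 in WT. Eip78C (q = 0.00144) and Blimp-1 (q = 0.00824) were called lower than WT in the labelled recombinant in the authors' deposited table. Hr4, a nuclear receptor gene, was called lower in the labelled recombinant than in hsromega66 (0.205 FPKM against 6.539, q = 0.00989 in the authors' deposited table). In that comparison 4 genes of the list fell and 1 rose, where 3.63% of all tested genes fell and 3.68% rose. The rise was that of ftz-f1, a nuclear receptor gene of the prepupal stage, named after its values were seen, at 10.04 FPKM in the labelled recombinant against 2.55 in hsromega66 (q = 0.0464 in the authors' deposited table). br, named after its values were seen, encodes zinc finger factors needed for the late genes and was at 9.06 FPKM in the labelled recombinant, 101 in hsromega66, 111.5 in Hsp90GFP and 134.8 in WT. It was not called, with q = 0.0738 against WT in the authors' deposited table.

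Among the 7 other ecdysone-inducible genes tested, 2 fell and none rose in the labelled recombinant against WT, where 4.05% of all tested genes fell. ImpE2, a gene induced by ecdysone in imaginal discs, was at 0.493 FPKM in the labelled recombinant, 146 in hsromega66, 75.2 in Hsp90GFP and 152 in WT, and ImpE1 was at 0.798, 8.27, 5.78 and 9.49 FPKM. Of the 7, 5 had values below WT in the labelled recombinant and 2 above. Those above were ImpL3 (340 FPKM against 214) and Eip55E (149 against 105), the latter named after its values were seen. ImpL3 was called higher in the labelled recombinant than in hsromega66 (83.9 FPKM, q = 0.00989 in the authors' deposited table). None of the 7 was called in hsromega66 or Hsp90GFP against WT. Against WT, members were called lower in hsromega66 (2 of 8) and in Hsp90GFP (2 of 8), and no gene of either ecdysone list was called there. Of all tested genes, 1.24% were called in hsromega66 and 1.09% in Hsp90GFP. At those shares, none called is near what lists of 14 and 7 genes would give. At a q under 0.01 each of these member counts became 1. Whether the members differ from those lists was not tested.

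**Figure D4:**
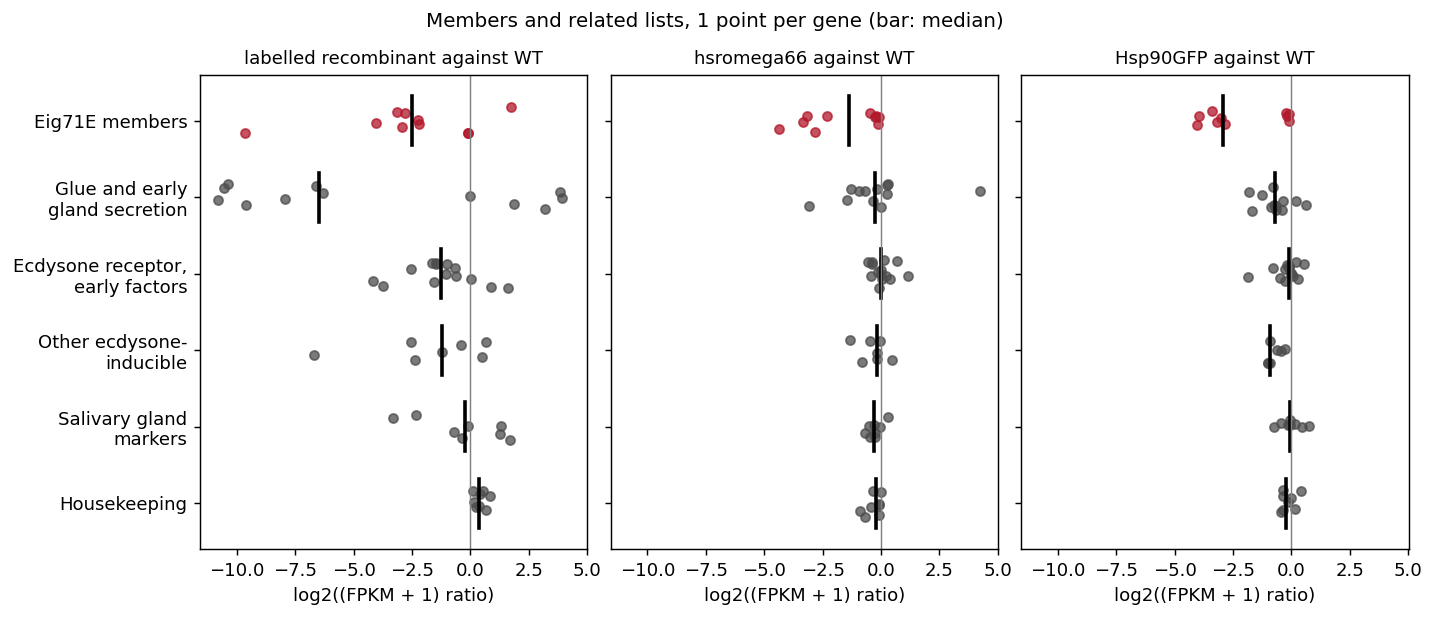
Log2((FPKM + 1) ratio) to WT, 1 point per gene, for the Eig71E members and 5 lists in the labelled recombinant, hsromega66 and Hsp90GFP; bars are medians. The members' median is -2.52 in the labelled recombinant, where that of the glue list is -6.48, and -1.39 and -2.94 in hsromega66 and Hsp90GFP, where those of the other lists shown lie between -0.90 and 0.00.

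Markers of the tissues that express these genes were measured in every group. The 8 salivary gland markers summed to 93.2 FPKM in the labelled recombinant, 114 in hsromega66, 121 in Hsp90GFP and 128 in WT, and none was listed at 0. In the labelled recombinant 2 of the 8 fell against WT, where 4.05% of all tested genes fell. They were sage, a gland transcription factor gene (1.77 FPKM against 26.8), and wbl, a gland secretory pathway gene (7.17 FPKM against 39.8). Of the 8, 5 had values below WT there and 3 above. Those above, without a call, were pip (25.1 FPKM against 6.98), PH4alphaSG2 (12.9 against 4.72) and PH4alphaSG1 (8.13 against 2.72). The marker fkh was at 4.51 FPKM in the labelled recombinant, 5.63 in hsromega66, 7.07 in Hsp90GFP and 8.08 in WT. PH4alphaSG1 and fkh were named after their values were seen. None of the 8 was called in hsromega66 or Hsp90GFP against WT, where 1.24% and 1.09% of all tested genes were. At those shares, none called is near what a list of 8 genes would give.

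Eig71Ee is also known from blood cells and gut. The 9 hemocyte markers with a row of their own summed to 856 FPKM in the labelled recombinant, 305 in hsromega66, 667 in Hsp90GFP and 360.4 in WT. The 2 that rose in the labelled recombinant against WT, where 4.61% of all tested genes rose, were the crystal cell enzymes PPO2 (332 FPKM against 56.0) and PPO1 (296 FPKM against 70.8). PPO1 and PPO2 made up most of the sum in the labelled recombinant and in Hsp90GFP. Of the 9 markers, 6 had values above WT in the labelled recombinant and 3 below. Those below, named after their values were seen, were eater (4.46 FPKM against 14.1), He (60.9 against 94.4) and crq (46.6 against 56.5), without a call. The 9 gut markers summed to 4240.3 FPKM in the labelled recombinant, 3982 in hsromega66, 2552 in Hsp90GFP and 1900 in WT, with 5 higher and 1 lower in the labelled recombinant against WT. Of all tested genes, 4.61% were higher and 4.05% lower there. Jon65Aiii, which was not called in any comparison, made up most of the gut sum in every group. It was at 2607 FPKM in the labelled recombinant, 2947 in hsromega66, 1703 in Hsp90GFP and 1571 in WT. In hsromega66 against WT, 4 of the 9 rose (Mal-A1, LysX, Amy-p and betaTry) and none fell, and in Hsp90GFP 1 rose (betaTry) and 1 fell (LysX). Of all tested genes, 0.862% rose in hsromega66, while 0.618% rose and 0.467% fell in Hsp90GFP. betaTry and Jon65Aiii were named after their values were seen. The median log2(FPKM + 1) ratio of the gut list to WT was 2.72 in the labelled recombinant, 1.67 in hsromega66 and 0.79 in Hsp90GFP. Mal-A1, a maltase gene, was at 315 FPKM in the labelled recombinant, 40.5 in hsromega66, 5.53 in Hsp90GFP and 5.07 in WT. LysX was the gut marker called lower than WT in the labelled recombinant. It was at 2.0997 FPKM there, 224 in hsromega66, 4.27 in Hsp90GFP and 38.1 in WT. The 7 fat body markers summed to 27039 FPKM in the labelled recombinant, 27568 in hsromega66, 30451 in Hsp90GFP and 46837 in WT. The larval storage protein gene Lsp1gamma was at 8541 FPKM in the labelled recombinant, 2.099 in hsromega66, 1.62 in Hsp90GFP and 12858 in WT. It was the 1 fat body marker of the 7 called against WT in hsromega66 and in Hsp90GFP. The shares of all tested genes lower there were 0.375% and 0.467%. In the labelled recombinant against WT, Lsp2 (178 FPKM against 10998) and Fbp1 (2.49 against 5996) fell and Apoltp (40.5 against 7.26) rose. None of 8 housekeeping genes was called in any of the 6 comparisons, where between 0.997% and 8.66% of all tested genes were. All 8 had values above WT in the labelled recombinant (median log2(FPKM + 1) ratio 0.38). In hsromega66 all 8 lay below WT (median -0.23), and in Hsp90GFP 6 lay below and 2 above (median -0.25). The part of these shifts in the Eig71E values was not tested.

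The genes outside the cluster whose profile was nearest to the mean of the 10 members, among 8325 genes of at least 5 FPKM in some group, were mir-4968 (distance 0.43), CG4269 (0.50), snoRNA:Me18S-A1806 (0.60), CG4927 (0.65) and CG11192 (0.71). They were highest in WT, as in CG4269 with 33.8 FPKM in the labelled recombinant, 68.0 in hsromega66, 54.3 in Hsp90GFP and 151 in WT. The row of mir-4968 covers 43300 bp and overlaps other rows, and likeness over 4 values is weak. Because Eig71Ee stood apart, its nearest genes were also listed, a choice made after its values were seen. They were the cuticle protein gene Cpr78E (0.63), Sgs5 (0.65), the fat body gene Fbp1 (0.80), snoRNA:snR38:54Eb (0.92) and Sgs7 (1.06). The row of that snoRNA covers 20250 bp, a span touched by 18 rows with its own among them, so its value cannot be read as that of the snoRNA alone. Cpr78E was at 2.84 FPKM in the labelled recombinant, 2421 in hsromega66, 1496 in Hsp90GFP and 2392 in WT, and Fbp1 at 2.49, 3790.3, 3496 and 5996 FPKM. For the 9 members other than Eig71Ee, the nearest gene was Tep1, a thioester protein gene of insect immunity (distance 0.22), with 8.11 FPKM in the labelled recombinant, 8.26 in hsromega66, 5.30 in Hsp90GFP and 26.5 in WT.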

How the data were processed

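Reads were handled with Bowtie, TopHat, Cufflinks and Cuffdiff 2.1.1 on the dm6 build, per the submitters' processing notes, which give no other version. Per the labels' protocols, total RNA was depleted of ribosomal RNA with a stranded kit and read from both ends (50 bp), all 8 libraries sharing 2 lanes. Per the file headers, the deposited group values are FPKM, 1 per group, equal in all 12 group columns of the 6 tables. The test statistic in the deposited tables is treated as a score, and the deposited p-values and q-values are the authors' own.

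Calls took a deposited q-value under 0.05 with status OK, which matched the authors' flag in all 6 tables. Folds were recomputed from FPKM, the first-named group over the other, and a value listed at 0 got no fold. The standard error of a log2 ratio was the ratio divided by the deposited statistic, and intervals are 95% normal ones. The z test on these errors and the Benjamini-Hochberg adjustment were checked on simulated data. The simulated ratios were drawn with the same errors, so this cannot show whether the errors themselves are right. The depth per library is unknown, so no counting interval is given.

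The members and lists were chosen with earlier results of these data known. Named genes were all members, Eig71Ek, the genes within 20 kb of the members, hsromega and Hsp83, up to 4 genes per list (most calls, then the largest log2 ratio) and the 5 nearest profiles; exceptions are stated. Of 81 list genes, 6 shared a merged row, 1 was not matched and 74 were used. Positions are from Ensembl release 115 (BDGP6.54, the dm6 assembly); 10 of 10 member starts and 9 of 10 ends equal those of the tables. Scripts ran in Python 3.11.15 with pandas 2.3.3, numpy 2.4.6, matplotlib 3.10.9 and, for tests, scipy 1.17.1.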

Additional observations from a re-analysis of the deposited data

How the results depend on the processing

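The 3 calls of Eig71Ee held under the 4 other ways of calling tried. Of the 44 member tests, 40 kept their side of the threshold at a deposited q under 0.01, 41 with Benjamini-Hochberg adjustment inside each table, 41 with one over all 6 tables, and 38 of 42 with median-centred ratios and implied standard errors; every change was a loss, the cause was not tested, and the errors give no value for a gene listed at 0. In hsromega66 against WT the count of 2 called members became 1 (Eig71Ed) under the first 3 and 0 under the last, which gives Eig71Ed no value. The call of Eig71Ed against WT thus held in each of the 3 ways that could be applied to it. In the labelled recombinant against WT the count became 1 (Eig71Ee) at q under 0.01, over all 6 tables and with implied errors. Against hsromega66 the count became 1 (Eig71Ee) at q under 0.01 and with implied errors, which again give Eig71Ed no value. In Hsp90GFP against WT it became 1 (Eig71Ea) at q under 0.01 and over all 6 tables, and 0 within the table and with implied errors. The calls of Eig71Eb, of Eig71Eg, of Eig71Ea in the labelled recombinant and in Hsp90GFP, and of Eig71Ed as higher in the labelled recombinant than in hsromega66 were each lost in at least 1 of these. The median log2 ratio in hsromega66 against WT was -3.05 with a pseudocount of 0.01 FPKM. For Hsp90GFP against hsromega66 it was 0.011 after centring and 0 with equal FPKM sums, which also gave 0 for the labelled recombinant against hsromega66. Without Eig71Ee, the summed level was 30.4 FPKM in hsromega66, 7.56 in Hsp90GFP and 128 in WT. Of the 5 nearest genes, 1 remained with a pseudocount of 0.1 FPKM and 2 with a minimum of 1 FPKM. No paired analysis was possible because the tables hold 1 value per group, and no library could be left out for the same reason.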
